A study of Mus musculus with 2 samples.

Results

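The tachykinin genes Tac1, Tac2, Tacr1 and Tacr3 were followed through the neuron types of the anterior hypothalamus and preoptic area of male mice. They were found by gene symbol in the feature list, where they are 4 of 32289 features. The aged group is 1 library from 5 pooled mice of 22 months and the young group is 1 library from 5 pooled mice of 3 months. The labels call the young mice wild type and give no genotype for the aged mice. Nuclei were isolated from tissue lying between Bregma +0.5 and -0.6 mm, freed of myelin, sorted on a DNA stain and profiled with 10x Genomics droplets, which count unique molecular identifiers (UMIs) of RNA per gene and nucleus. Each age has a single library and hence no replicate check, so age, pool of mice and library cannot be told apart, no test between ages is given, and every interval covers counting error only.

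Tachykinins are short amidated neuropeptides. Tac1 encodes the precursor of substance P and neurokinin A, and Tac2 encodes the precursor of neurokinin B. Tacr1 encodes the receptor that prefers substance P and Tacr3 the receptor that prefers neurokinin B, and both are excitatory receptors that signal through Gq proteins and calcium. In the forebrain, substance P marks striatal projection neurons that carry the dopamine receptor Drd1, and neurokinin B acts in reproductive control and, in the preoptic area of rats, in heat loss.

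The peptides are shown first because both ligand genes share 1 motif, which is what makes their products tachykinins. The DNA below, read 5′ to 3′ from GENCODE M21 transcripts on GRCm38, codes for each peptide and the signal for its release and amidation. Capitals mark the 5 codons of the shared end of the peptide (phenylalanine, a variable residue, glycine, leucine, methionine), and the last 9 bases code for the glycine that donates the amide and the pair of basic residues at which the precursor is cut.
substance P: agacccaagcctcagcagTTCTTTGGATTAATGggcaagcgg
neurokinin A: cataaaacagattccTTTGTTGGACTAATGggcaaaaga
neurokinin B: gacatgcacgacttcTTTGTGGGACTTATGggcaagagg
In the 15 capital bases, neurokinin A matches substance P at 12 and neurokinin B at 13, and neurokinin B matches substance P at 10. Substance P has 11 residues, and neurokinin A and neurokinin B have 10 each. All 4 protein-coding Tac1 transcripts of the annotation hold the substance P motif, and 2 of them also hold neurokinin A. UMI counts per gene do not separate these transcripts, so a Tac1 level is a level of the shared precursor gene. Both annotated protein-coding Tac2 transcripts hold the neurokinin B motif.

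On GRCm38, Tac1 (ENSMUSG00000061762) lies on the plus strand at chr6:7554879-7565834 and Tac2 (ENSMUSG00000025400) on the plus strand at chr10:127724478-127731768. Tacr1 (ENSMUSG00000030043) spans chr6:82402334-82560104 and Tacr3 (ENSMUSG00000028172) spans chr3:134829007-134934579, both on the plus strand. The Tac2 span is 7.29 kb, that of Tacr1 158 kb and that of Tacr3 106 kb. Nuclear RNA is rich in unspliced transcripts and no source used here says whether introns were counted, so levels are compared between nuclei and libraries, not between the 4 genes.

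Over all barcodes with at least 500 genes and at most 5% mitochondrial UMIs, 8597 aged and 10437 young, Tac1 had 15506 aged and 13449 young UMIs, Tac2 2666 and 2454, Tacr1 1564 and 1825, and Tacr3 428 and 523. After empty droplets and doublets were removed, 7723 aged and 9870 young nuclei were left, of which 4956 and 6400 were neurons with a median depth of 8323 and 7770.0 UMIs. Of the nucleus barcodes, 21 occurred in both libraries. Neurons were grouped into 26 sub-clusters without use of any tachykinin gene, and 24 of them were compared between libraries. A name ending in "like" rests on at least 3 marker genes found in that sub-cluster, and the other sub-clusters are called by their leading genes. Marker lists of other types often reached that number too. The Sst Npy type had 5 of 6 of its own markers, but also 5 of 5 Foxp2 Tshz1 and 4 of 5 basal forebrain Lhx8 markers. A count of markers alone thus does not single out a type. At finer grouping, the group of Sst Npy nuclei led by Sst, Npy and Nos1 held 94 aged and 128 young nuclei. Those led by Gbx1 and Sox6 numbered 144 and 206, and those led by Ccbe1 and Tafa4 numbered 111 and 158. The name Sst Npy thus does not describe every nucleus of that type. The Drd1, Drd2 and Drd3 sub-clusters carry the genes of striatal neurons, and whether those nuclei came from inside the hypothalamus was not tested.

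Over all neurons, the level of both peptide genes was higher in the aged library and the level of both receptor genes was close between libraries. Tac1 stood at 281 CPM (counts per 1e6 UMIs) in aged neurons (95% Poisson interval 276 to 286) and 200 CPM in young neurons (196 to 204). The ratio of aged to young was 1.41 (exact 95% interval 1.37 to 1.44). Tac2 stood at 50 CPM in aged and 37.3 CPM in young neurons, a ratio of 1.34 (1.26 to 1.42). Those intervals for the peptide genes lie wholly above 1. Tacr1 stood at 31.4 CPM in aged and 31.5 CPM in young neurons, a ratio of 0.999 (0.931 to 1.07). Tacr3 stood at 8.52 CPM in aged and 8.86 CPM in young neurons, a ratio of 0.961 (0.840 to 1.10), so a receptor difference of the size seen for the peptide genes lies outside both intervals.

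A level at least 25% higher in the aged library, or lower by the same factor, is called higher or lower below, as a fixed rule of size among genes with at least 50 UMIs over both libraries in the nuclei compared. By it, 2 of the 4 genes were higher in aged neurons and 0 lower, where 24.5% of 17994 genes were called either way, 10.8% higher and 13.7% lower. Among those genes the Tac1 ratio was at percentile 95.4 and the Tac2 ratio at percentile 93.8. When every sub-cluster was given the same weight in both libraries, the ratio was 1.36 for Tac1 and 1.24 for Tac2, which ends the call for Tac2. The Tac1 ratio was 1.38 without the 3 neuron types with most Tac1.

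Free RNA in the droplets bears on Tac1 most. Oligodendrocytes, which are not known to make tachykinins, had Tac1 at 185 CPM in the aged and 161 CPM in the young library, with at least 1 UMI in 32.1% and 27.5% of nuclei. Microglia had 170.2 CPM in the aged and 195 CPM in the young library. Both glial classes were shallower than neurons, so a given number of free UMIs makes a higher CPM in them. A neuron type below them in CPM is therefore not by that alone at background. Barcodes of 100 or fewer UMIs, which hold mostly free RNA, had 821 CPM in the aged and 669.8 CPM in the young library. A single Tac1 UMI in a nucleus is therefore within the background, which microglia show falling to 0.488% of aged and 1.06% of young nuclei at 3 or more UMIs. With the oligodendrocyte and microglia level subtracted, the ratio in neurons was 1.49 for Tac1 and 1.44 for Tac2. The receptors were nearly clear of this background, with Tacr1 at 1.46 CPM in aged and 1.33 CPM in young oligodendrocytes and Tacr3 at 2.19 and 1.11 CPM.

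**Figure D1:**
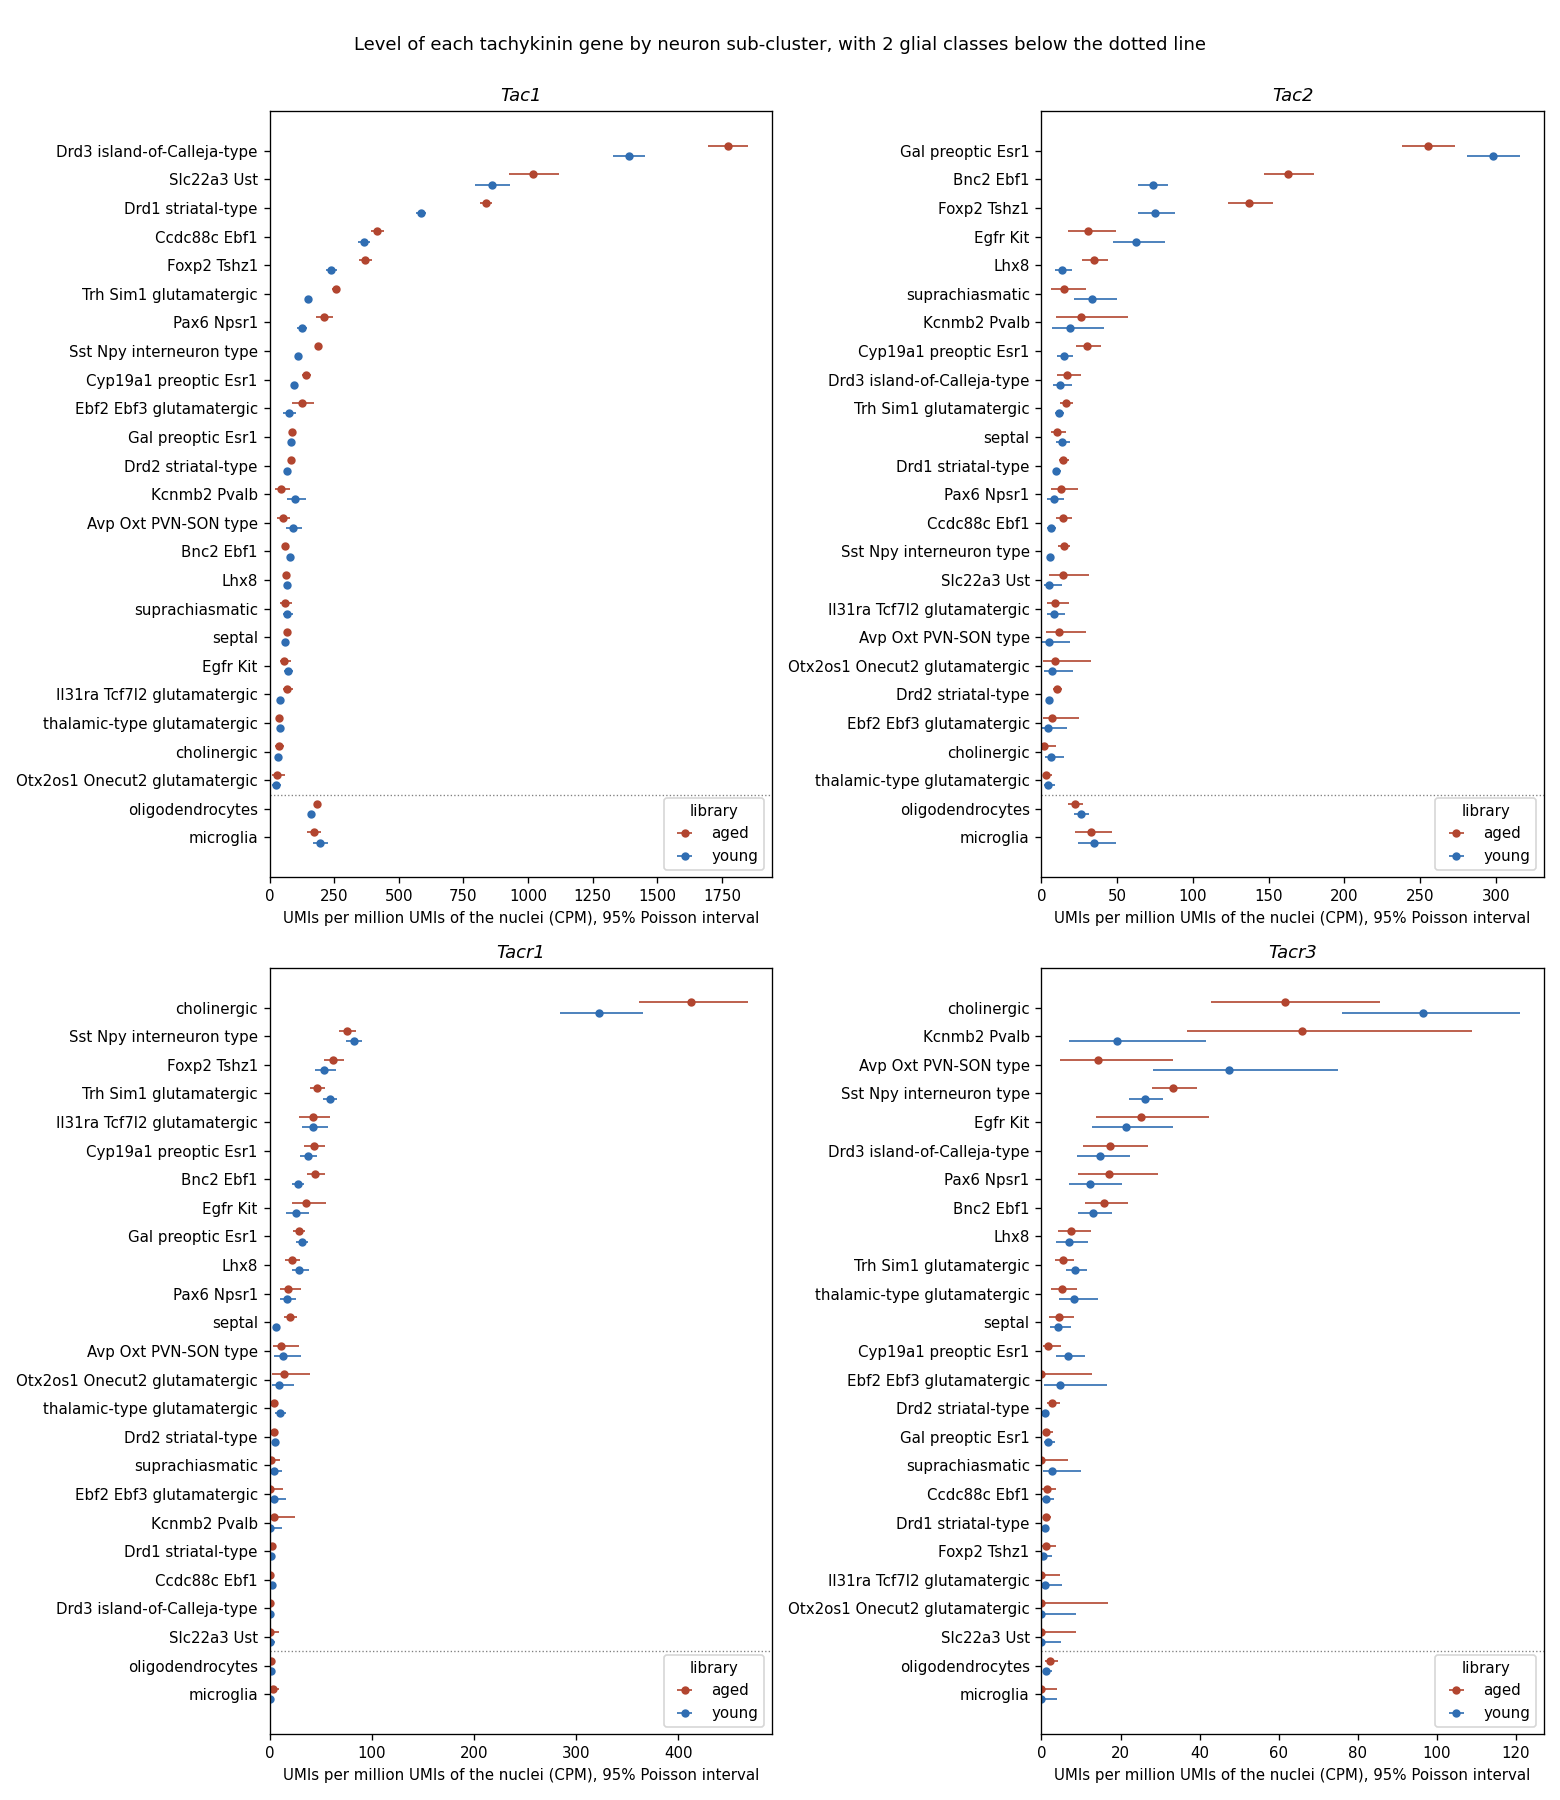
Level of Tac1, Tac2, Tacr1 and Tacr3 (horizontal axis, CPM with 95% Poisson interval) in neuron sub-clusters and, below the dotted line, in oligodendrocytes and microglia; points are the aged and the young library, 1 each. Tac1 is highest in the Drd3, Slc22a3 Ust and Drd1 types, Tac2 in the Gal preoptic type and Tacr1 in the cholinergic type in both libraries.

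Tac1, the substance P gene, was carried mainly by striatal-type neurons. The Drd3 island-of-Calleja-type-like nuclei, small granule-like neurons with the dopamine receptor Drd3, had 1772 CPM in the aged library (2033 UMIs in 277 nuclei) and 1389 CPM in the young library (1981 UMIs in 394 nuclei). A sub-cluster led by Slc22a3 and Ust had 1019 CPM in the aged and 860.3 CPM in the young library. The Drd1 striatal-type-like nuclei had 837 CPM in the aged library (4735 UMIs in 563 nuclei) and 585 CPM in the young library (3390 UMIs in 626 nuclei). These 3 types were ordered alike in both libraries, and each stood above the next whichever libraries were set against each other. The Drd1 type alone accounted for 36.7% of the aged and 30.5% of the young Tac1 UMIs of neurons, and the Drd3 type 15.8% and 17.8%.

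Below them came the Ccdc88c Ebf1 sub-cluster with 417 CPM in the aged and 365 CPM in the young library, then Foxp2 Tshz1 GABAergic-like nuclei with 370.5 CPM in the aged and 239 CPM in the young library. Trh Sim1 hypothalamic glutamatergic-like nuclei had 256 CPM in the aged and 149 CPM in the young library. Ranks 4 to 8 were the same in both libraries, but neighbouring types overlapped once the age difference was taken into account. Drd2 striatal-type-like nuclei, the striatal class known to use enkephalin in place of substance P, had 81.5 CPM in the aged and 65.8 CPM in the young library, below oligodendrocytes in CPM. Cholinergic-like nuclei were lower still at 36.9 CPM in the aged and 34.3 CPM in the young library, from 21 and 27 UMIs. Across the 24 types, the Tac1 level in the aged library followed that in the young library with a Pearson r of 0.950 and a Spearman rho of 0.801, as a description over types that share each library's depth and free RNA.

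The age ratio of Tac1 could be computed in 21 sub-clusters with at least 50 UMIs. It was above 1 in 15 and below 1 in 6 with a median of 1.24, and the counting interval lay above 1 in 13 types and below 1 in 1 type. By the rule of size it was higher in 10 and lower in 2 of the 21, where a median of 15.6% of all genes were called higher and 14.8% lower in those types. In the Drd1 type the ratio was 1.43, with a lower bound of 1.37, beside 15.1% of genes higher, and in the Drd3 type it was 1.28 (1.20 to 1.36) beside 14.8%. Both calls held under each of the 7 alternatives, within 1.37 to 1.52 and 1.27 to 1.30. The Slc22a3 Ust and Ccdc88c Ebf1 types, at 1.18 and 1.14 with lower bounds of 1.05 and 1.04, were not called.

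Nuclei with at least 1 Tac1 UMI made up 97.9% of the Drd1 type in the aged library and 94.2% in the young library, and 76.0% and 66.7% after thinning to 2000 UMIs. Nuclei with 10 or more UMIs made up 35.9% in the aged library (202 of 563) and 12.6% in the young library (79 of 626). In the Drd3 type, 25.6% of aged and 10.7% of young nuclei had 10 or more. Over all neurons, 412 aged nuclei (8.31%, exact binomial interval 7.56 to 9.12) and 216 young nuclei (3.38%, 2.95 to 3.85) had 10 or more Tac1 UMIs, which together had 49.1% of the aged and 28.1% of the young Tac1 UMIs. Such counts rise with depth as well as with level, and the median depth of the Drd1 type was 9088 UMIs in the aged library and 8446 in the young library.

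**Figure D2:**
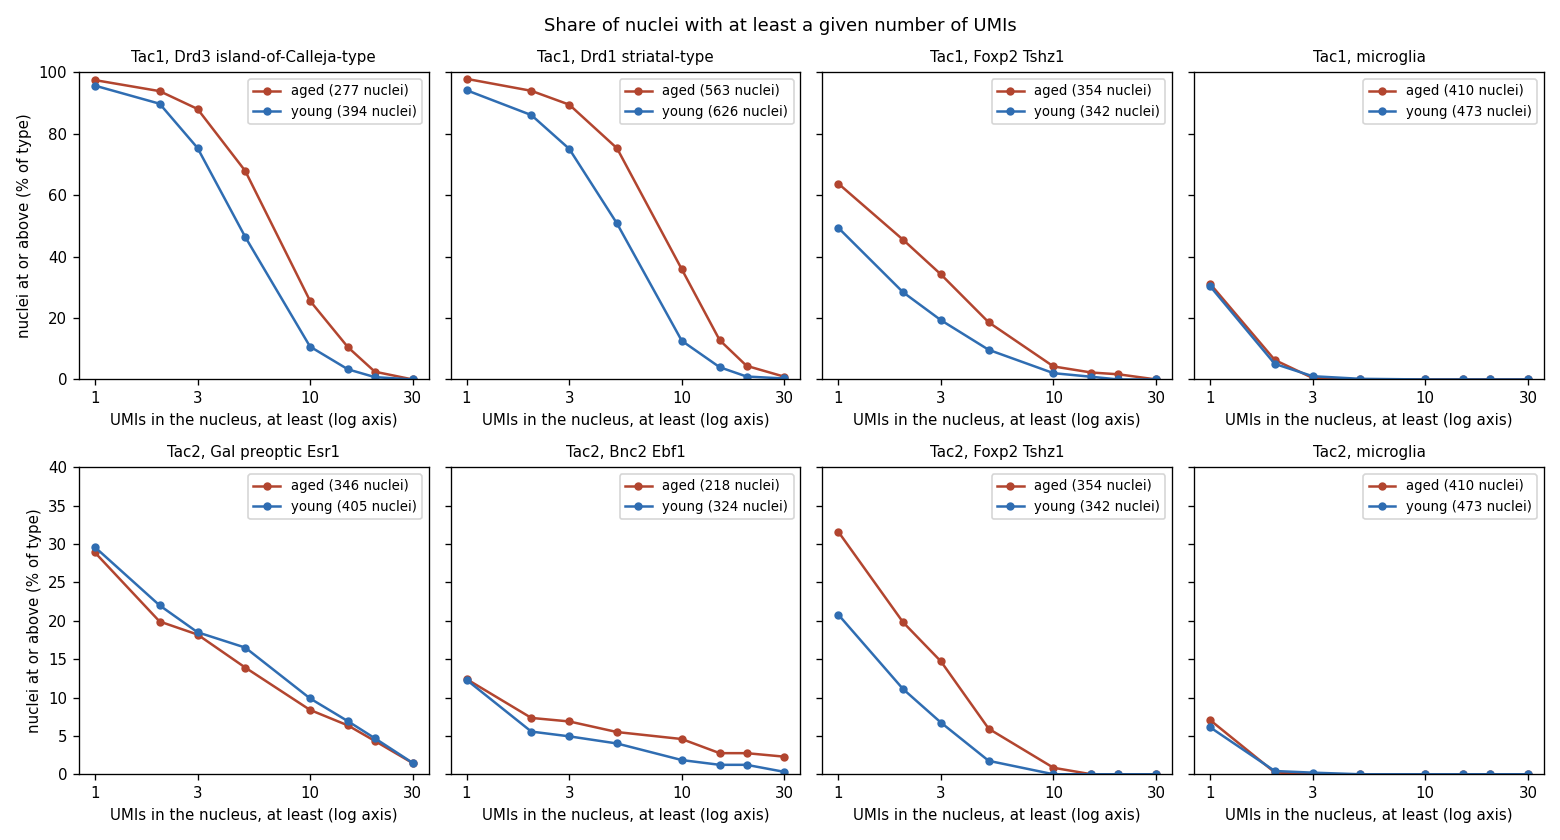
Share of nuclei (vertical axis, percent of the type) with at least a given number of UMIs (horizontal axis, log scale) for Tac1 in the upper row and Tac2 in the lower row, with the aged and the young library as lines. For Tac1 in the Drd1 type the lines part from 97.9% aged and 94.2% young at 1 UMI to 35.9% aged and 12.6% young at 10 UMIs, while microglia reach 0.488% aged and 1.06% young at 3 UMIs.

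Several types with lower levels had larger Tac1 ratios. Foxp2 Tshz1 GABAergic-like nuclei had a ratio of 1.55 (1.39 to 1.73), where 15.6% of genes were higher, with at least 1 UMI in 63.8% of aged and 49.4% of young nuclei and 3 or more in 34.2% and 19.3%. All 7 alternatives kept this call, within 1.53 to 1.93. With nuclei thinned to 2000 UMIs (2 aged and 7 young shallower nuclei left out), 38.9% of aged and 28.1% of young Foxp2 Tshz1 nuclei had a Tac1 UMI, against 25.8% and 21.1% of oligodendrocytes. Trh Sim1 nuclei had a ratio of 1.72 (1.56 to 1.89), where 14.9% of genes were higher. Trh, the thyrotropin-releasing hormone gene, was found in 50.8% of aged and 63.1% of young such nuclei with 3 or more Tac1 UMIs. Among those with 0 it was found in 31.3% and 24.9%, so many nuclei of this type showed no Trh UMI. At finer grouping, the group with most nuclei of this type, led by Trp73 and Samd3, had a ratio of 1.12, under the limit. The finer group led by Trh and Sim1 (157 aged, 193 young nuclei) had Tac1 at 505 CPM aged and 307 CPM young. Sst Npy interneuron-like nuclei had a ratio of 1.73 (1.55 to 1.93) beside 14.0% of genes higher, in which 1 aged nucleus held 84 of 769 UMIs, and 1.62 without the nucleus with most UMIs in each library.

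Tac1 was also called in further types. In the Pax6 Npsr1 sub-cluster the ratio was 1.69 (1.34 to 2.13) beside 18.5% of genes higher, and it was 1.22 without the 3 nuclei with most UMIs in each library. Further higher calls were in Cyp19a1 preoptic Esr1-like nuclei at 1.48 (15.1% of genes higher), in Ebf2 Ebf3 nuclei at 1.69 (18.7%) and in Il31ra Tcf7l2 nuclei at 1.65 (16.7%). The first 2 calls held under 7 of 7 alternatives and the last under 5. All 3 types lay below oligodendrocytes in CPM, and after subtraction of free RNA, 70.3% of aged and 60.9% of young Tac1 UMIs were left in the Cyp19a1 type. In the Ebf2 Ebf3 type 40.3% of aged and 9.02% of young UMIs were left, and in the Il31ra Tcf7l2 type 44.0% and 9.89%. Tac1 was lower in aged Bnc2 Ebf1 nuclei, at 59.0 CPM in the aged and 79.1 CPM in the young library (0.746, 0.599 to 0.926), where 14.7% of genes were lower. It was also lower in Avp Oxt paraventricular-supraoptic-like nuclei, with 18 aged and 34 young UMIs and a ratio of 0.573 (0.305 to 1.04) where 21.5% of genes were lower, and this direction turned to 1.66 when the tachykinin genes were kept in the clustering. Both types likewise lay below oligodendrocytes in CPM.

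Tac2, the neurokinin B gene, was highest in 1 of the preoptic types. Gal preoptic Esr1-like nuclei, which carry 6 of 7 preoptic markers, had 255 CPM in the aged library (238 to 273, 873 UMIs) and 298 CPM in the young library (281 to 316, 1111 UMIs). The ratio was 0.855 (0.781 to 0.935), not past the limit, and 28.9% of aged and 29.6% of young nuclei had a Tac2 UMI. Of all Tac2 UMIs of neurons, 38.0% in the aged library and 53.6% in the young library came from it, and 2.31% and 1.49% came from the Cyp19a1 preoptic Esr1-like type. Within the Gal type, Tac2 sat in few nuclei: 63 of 346 aged and 75 of 405 young nuclei had 3 or more UMIs. Over all neurons, 183 aged nuclei (3.69%) and 154 young nuclei (2.41%) had 3 or more, and they held 79.1% and 76.6% of the Tac2 UMIs.

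Bnc2 Ebf1 and Foxp2 Tshz1 nuclei came next, and both were higher in the aged library. In Bnc2 Ebf1 nuclei, Tac2 was 163 CPM in the aged library (370 UMIs) and 73.4 CPM in the young library (220 UMIs), a ratio of 2.22 (1.87 to 2.63) where 13.2% of genes were higher. The share with a UMI was 12.4% in the aged library and 12.3% in the young library, against 7.07% and 6.13% of microglia. At 3 or more UMIs it was 6.88% and 4.94%, and at 10 or more it was 4.59% (10 of 218) and 1.85% (6 of 324), and the top nucleus held 81 aged and 47 young UMIs. In Foxp2 Tshz1 nuclei, Tac2 was 137 CPM in the aged and 75.3 CPM in the young library, a ratio of 1.82 with an upper bound of 2.21, beside 15.6% of genes higher, with a UMI in 31.6% of aged and 20.8% of young nuclei and, after thinning, in 16.8% and 10.1%.

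Of 13 sub-clusters with enough Tac2 UMIs, 10 were called higher and 2 lower in the aged library, with a median ratio of 1.82, where a median of 15.1% of all genes were called higher and 14.1% lower in those types. Several of these rest on few UMIs or on levels close to background. Trh Sim1 nuclei, at 1.35 from 59 aged and 62 young UMIs, had an interval across 1 (0.930 to 1.96). Sst Npy nuclei, at 2.71 (1.73 to 4.32) beside 14.0% of genes higher, had 14.7 CPM in the aged and 5.42 CPM in the young library, against 22.1 and 26.2 CPM in oligodendrocytes, and the ratio was 1.57 without the 3 nuclei with most UMIs in each library. The Drd1 (1.47), Drd2 (1.95, 17.2% of genes higher) and Ccdc88c Ebf1 (2.38, 18.6%) types likewise lay below oligodendrocytes in CPM in both libraries. Once free RNA was subtracted, 44.1% of aged Tac2 UMIs were left in the Drd2 type and 60.4% in the Ccdc88c Ebf1 type. For young nuclei the amount subtracted was larger than the count, leaving -6.15 UMIs in the Drd2 type and -1.08 UMIs in the Ccdc88c Ebf1 type. The glial level is thus too high an estimate of free Tac2 there, and no ratio was computed after subtraction. In the Drd1 type 63.9% of aged and 37.0% of young Tac2 UMIs were left, and in Sst Npy nuclei 68.9% and 6.34%. Basal forebrain Lhx8-like nuclei, at 2.49 (1.56 to 4.10) beside 13.2% of genes higher, came to 1.61 without those 3 nuclei. Cyp19a1 preoptic Esr1-like nuclei, which carry the aromatase gene, were at 2.06 (1.30 to 3.31) from 53 aged and 31 young UMIs, came to 1.07 without those 3 nuclei and fell below 1 under every other grouping. Egfr Kit nuclei were lower in the aged library, with 17 aged and 56 young UMIs (0.489, 0.266 to 0.854) beside 16.5% of genes lower, and 24 of the young UMIs came from 1 nucleus. Septal-like nuclei were also lower, with 22 aged and 37 young UMIs (0.765), where 14.8% of genes were lower.

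**Figure D3:**
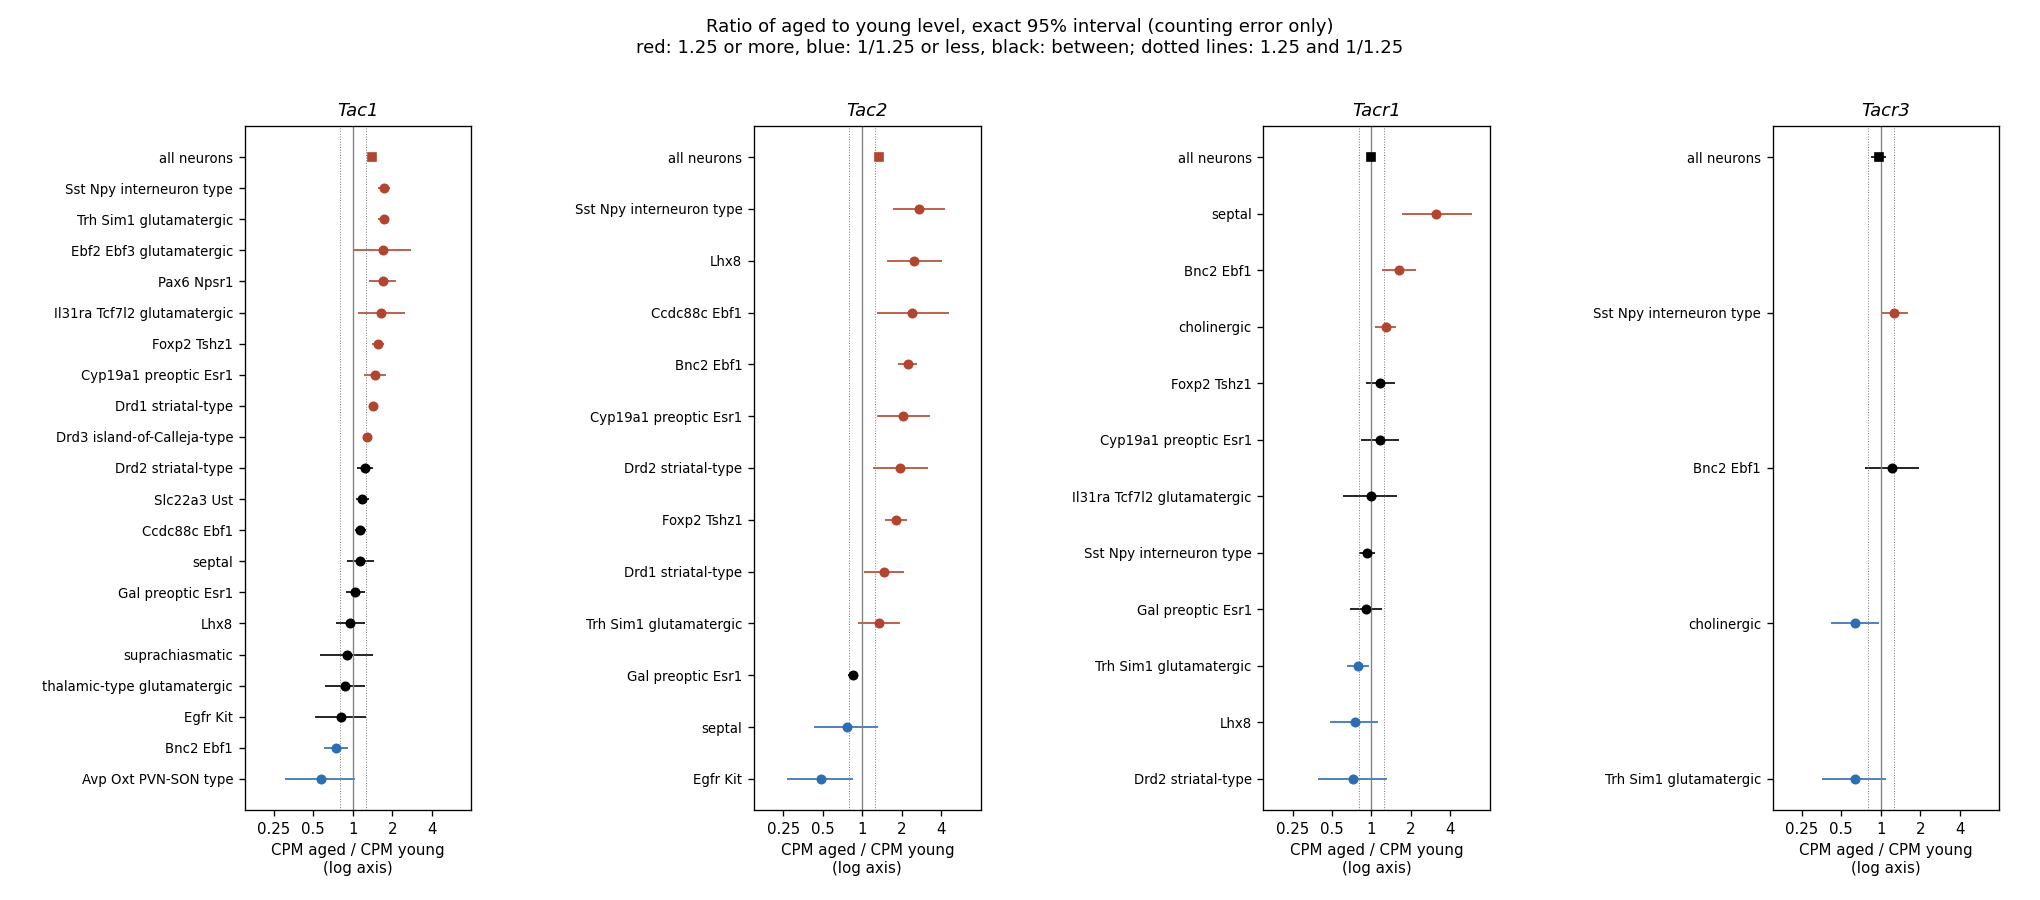
Ratio of aged to young CPM (horizontal axis, log scale, exact 95% interval) of each tachykinin gene in all neurons (squares) and in sub-clusters with at least 50 UMIs (circles), with dotted lines at the limits of the call; red marks higher calls, blue lower calls and black neither. Tac1 and Tac2 lie mostly above 1, with 1.41 and 1.34 in all neurons, while Tacr1 and Tacr3 lie on both sides, with 0.999 and 0.961 in all neurons.

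Tacr1, the substance P receptor gene, was highest in cholinergic-like neurons, which carry 5 of 5 cholinergic markers. Their level was 412 CPM in the aged library (361 to 468, 234 UMIs in 31 nuclei) and 322 CPM in the young library (284 to 365, 254 UMIs in 50 nuclei). At least 1 UMI was found in 80.6% of aged and 78.0% of young cholinergic-like nuclei, against 0.317% and 0.280% of oligodendrocytes. The median depth was 18604 UMIs in aged and 14868 in young cholinergic-like nuclei, and 2023 and 1906 in oligodendrocytes. Thinned to 2000 UMIs, the share was 45.2% of aged and 36.0% of young cholinergic-like nuclei and 0.207% of oligodendrocytes in each library. Although these nuclei were 0.626% of aged and 0.781% of young neurons, 16.2% of the aged and 14.5% of the young Tacr1 UMIs lay in them. The age ratio was 1.28 (1.06 to 1.53), where 19.7% of genes were called higher in this small type. It came to 1.09 without the 3 nuclei with most Tacr1 in each library, and 4 of 7 alternatives kept the call.

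Sst Npy interneuron-like nuclei came next, with 76.0 CPM in the aged library (311 UMIs) and 82.3 CPM in the young library (471 UMIs), a ratio of 0.924 (0.798 to 1.07). In them lay 21.6% of the aged and 26.9% of the young Tacr1 UMIs. Foxp2 Tshz1 nuclei followed with 62.5 CPM in the aged and 53.7 CPM in the young library, and Trh Sim1 nuclei with 46.5 and 59.1 CPM, an order that turns between the libraries. In Trh Sim1 nuclei the ratio was 0.788 (0.650 to 0.952) and Tacr1 was lower by the rule of size, beside 13.3% of genes lower there. The finer group of this type led by Trp73 and Samd3 had Tacr1 at 37.7 CPM in the aged and 53.9 CPM in the young library. The finer group led by Trh and Sim1 went the other way, at 58.0 and 47.5 CPM. The types richest in Tac1 had almost no Tacr1: there were 13 aged and 6 young UMIs in the Drd1 type, 1 and 1 in the Drd3 type, and 0 in both libraries in the Slc22a3 Ust type, which allows a share of nuclei with a UMI of up to 4.76% in the aged library and 2.34% in the young library.

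Tacr1 had a ratio in 12 sub-clusters, of which 3 were called higher and 3 lower, with a median of 1.07, where 10.4% to 19.7% of all genes were called higher and 12.2% to 18.7% lower in those types. The largest was in septal-like nuclei, at 19.8 CPM in the aged library (41 UMIs) and 6.38 CPM in the young library (17 UMIs), a ratio of 3.10 (1.72 to 5.83) where 15.2% of genes were higher. The call held under 7 of 7 alternatives, and 10 of the 41 aged UMIs came from 1 nucleus. In Bnc2 Ebf1 nuclei, Tacr1 was 44.5 CPM in the aged and 27.4 CPM in the young library (1.62, 1.20 to 2.20). The other lower calls, in the Lhx8 type (0.744, 0.484 to 1.13, beside 14.7% of genes lower) and the Drd2 type (0.724, 0.388 to 1.32, beside 12.2%), had intervals across 1, and each turned direction under at least 1 other grouping.

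Tacr3, the neurokinin B receptor gene, was sparse, with 391 aged and 493 young UMIs in all neurons. It too was high in cholinergic-like nuclei, at 61.6 CPM in the aged library (42.9 to 85.6, 35 UMIs) and 96.5 CPM in the young library (76.0 to 121, 76 UMIs), with a UMI in 41.9% of aged and 48.0% of young nuclei. The ratio was 0.638 (0.415 to 0.964), lower by the rule of size beside 17.1% of genes lower there, and stayed between 0.52 and 0.64 under 7 alternatives. Both receptor genes were found together in 11 of 31 aged and 17 of 50 young cholinergic-like nuclei. Tacr3 was found in 44.0% of aged nuclei with Tacr1 and 33.3% of those without, and in 43.6% and 63.6% of young ones. The direction thus differed between libraries. Counting intervals of the age ratio lay above 1 for Tacr1 and below 1 for Tacr3 in the cholinergic-like type.

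Sst Npy nuclei held the largest share of neuronal Tacr3, 34.8% of the aged and 30.4% of the young UMIs, at 33.2 CPM in the aged and 26.2 CPM in the young library. The ratio was 1.27 (0.998 to 1.61), and 3 of 7 alternatives kept it past the limit. Grouped more finely, nuclei of this type led by Sst, Npy and Nos1 had 19 aged and 22 young Tacr3 UMIs. Those led by Gbx1 and Sox6 had 75 and 67, and those led by Ccbe1 and Tafa4 had 43 and 56. In Trh Sim1 nuclei, Tacr3 was 5.41 CPM in the aged and 8.58 CPM in the young library (0.631, 0.353 to 1.09). Kcnmb2 Pvalb nuclei had 15 aged and 6 young Tacr3 UMIs, too few for a ratio. Gal preoptic Esr1-like nuclei, the main Tac2 type, had 4 aged and 6 young Tacr3 UMIs, and Foxp2 Tshz1 nuclei had 3 and 1.

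The tachykinin genes divided the Sst Npy interneuron-like type into nuclei with different partners. Nuclei with 3 or more Tacr1 UMIs (34 aged, 57 young) were compared with nuclei with 0 Tacr1 UMIs (250 aged, 346 young). Summed over nuclei, levels of genes of nitric oxide synthase interneurons were higher with Tacr1. Nos1, which encodes the neuronal synthase, was 208 CPM in aged nuclei with Tacr1 and 10.1 CPM in those without, and 416 and 9.19 CPM in the young library. Npy, a peptide of the same interneurons, was 1434 CPM with Tacr1 and 65.7 CPM without in the aged library, and 1146 and 8.40 CPM in the young library. A Npy UMI was found in 44.1% of aged and 45.6% of young nuclei with Tacr1, and a Nos1 UMI in 47.4% of the young ones. The summed levels thus do not describe every nucleus with Tacr1. Sst was 4148 CPM with Tacr1 and 402 CPM without in the aged library, and 3034 and 214 CPM in the young library. Chodl, which in mouse cortex marks long-range neurons of this kind, had 6 aged and 15 young UMIs with Tacr1 and 2 and 2 UMIs without. The median depth was 11972 UMIs with Tacr1 and 9982 without in the aged library, and 11107 and 9630.0 in the young library.

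Tacr3 was lower in nuclei with Tacr1, at 11.2 CPM with Tacr1 and 38.4 CPM without in the aged library, and 5.82 and 29.7 CPM in the young library, while Gbx1, a homeobox gene of this type, was 55.9 and 58.2 CPM in the aged and 82.9 and 67.7 CPM in the young library. Split by Tacr3 instead, Nos1, Npy, Chodl and Lhx6 ran opposite ways in the libraries. Sst, Nxph1, Pvalb, Gbx1 and Tacr1 were lower in nuclei with 3 or more Tacr3 UMIs in both. Sst was 607 against 1031 CPM in the aged library and 39.7 against 719 CPM in the young library. Nos1 was 107 CPM in the 14 aged nuclei with 3 or more Tacr3 UMIs and 36.1 CPM in the 292 with 0. It was 9.93 and 73.1 CPM in the 16 and 433 young nuclei. The nuclei with 3 or more held 25 aged and 3 young Nos1 UMIs. These lay in 14.3% of the aged and 12.5% of the young nuclei with 3 or more, so the Nos1 level there rests on few nuclei. Median depth in the nuclei with 3 or more and with 0 was 15278 and 9870.0 UMIs in the aged library and 16346 and 9521 UMIs in the young library. Both receptor genes had a UMI in 11 of 355 aged and 20 of 506 young nuclei. Tac1 of the Sst Npy type stood at 687 CPM with Tacr1 and 129 CPM without in the aged library, and 215 and 86.1 CPM in the young library. The share of nuclei with a Tac1 UMI was 58.8% with Tacr1 and 44.8% without in the aged library, and 36.8% and 38.7% in the young library. Grouped more finely, nuclei led by Sst, Npy and Nos1 (94 aged, 128 young) had Tacr1 at 180.5 CPM in the aged and 195 CPM in the young library and Tac1 at 677 and 367 CPM. Nuclei led by Gbx1 (144 aged, 206 young) had Tacr1 at 42.8 and 50.6 CPM and Tac1 at 46.3 and 33.1 CPM. The partner genes helped to define the sub-cluster and were listed with earlier results known, so these values are a description.

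**Figure D4:**
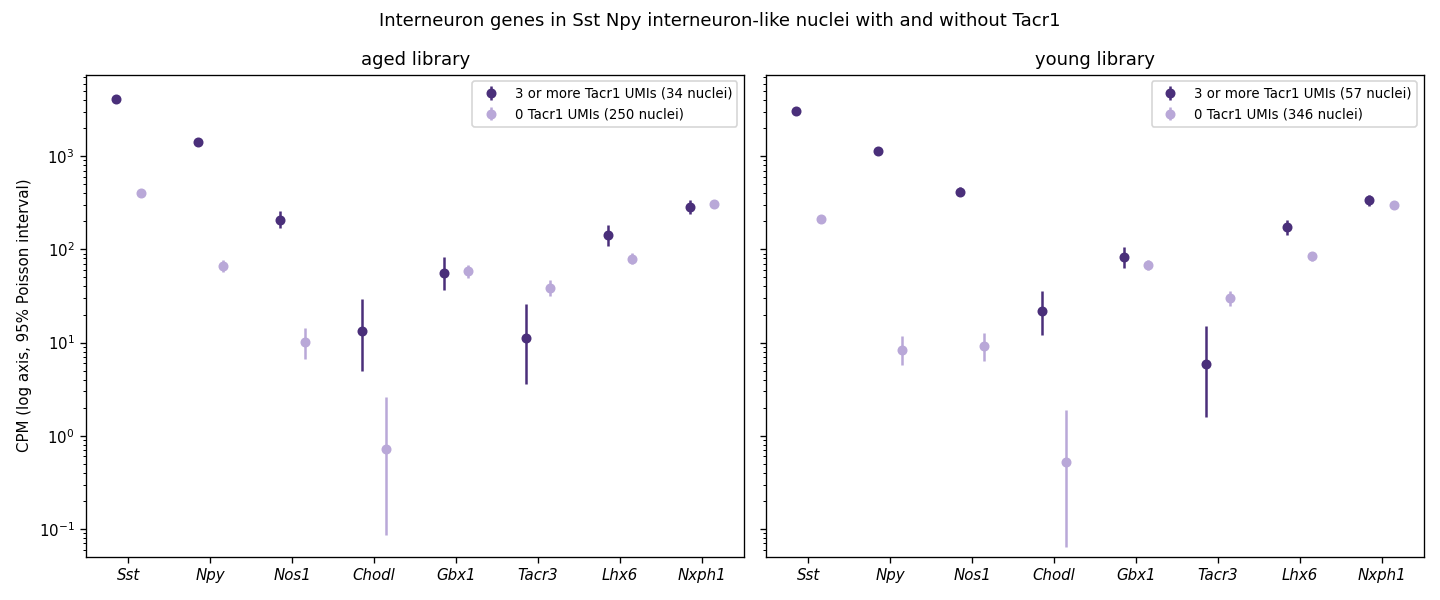
Level of interneuron genes (vertical axis, CPM on a log scale, 95% Poisson interval) in Sst Npy interneuron-like nuclei with 3 or more and with 0 Tacr1 UMIs, for the aged library on the left and the young library on the right. Sst, Npy and Nos1 are higher with Tacr1 in both libraries (Nos1 208 against 10.1 CPM aged and 416 against 9.19 CPM young), while Tacr3 is lower (11.2 against 38.4 CPM aged and 5.82 against 29.7 CPM young).

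Foxp2 Tshz1 GABAergic-like nuclei carried both peptide genes and Tacr1. Nuclei with 3 or more Tac2 UMIs had Tac1 at 532 CPM, against 277 CPM in those with 0, in the aged library, and 362 against 220.4 CPM in the young library. The share with a Tac1 UMI was 86.5% against 55.4% in the aged library. It was close in the young library, at 52.2% of 23 nuclei against 49.1% of 271. A Tacr1 UMI was found in 43.8% of aged and 33.8% of young nuclei with Tac2, and in 16.1% and 14.4% of those without. A finer group led by Mdfic, Tshz1 and Foxp2 (135 nuclei in each library) had Tac1 at 533 CPM in the aged and 391 CPM in the young library, Tac2 at 219 and 124 CPM and Tacr1 at 84.6 and 87.6 CPM. A second finer group led by Chst9, Npffr2 and Tshz1 (215 aged, 207 young) was lower in all 3 genes, with Tac1 at 224 and 116 CPM, Tac2 at 73.3 and 35.7 CPM and Tacr1 at 40.2 and 26.1 CPM. These values do not allow for depth, which raises the chance of a UMI of each gene.

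Partner pathways of the tachykinins are given by the same rule in neurons, where 10.8% of genes were called higher and 13.7% lower. Of 14 genes of peptide processing and breakdown, 1 was higher and 0 lower, and the median log2 ratio was 0.03 against 0.02 over all genes. Pcsk1n, an inhibitor of a prohormone convertase, was 439 CPM in the aged and 322 CPM in the young library (1.37, 1.34 to 1.39), while Pcsk2, a convertase that cuts the precursors, had a ratio of 1.01 and Pam, which makes the amide, one of 1.10. Of 19 genes of Gq signalling, 2 were higher and 2 lower, or 10.5% each way, which is near the share over all genes. The calcium channel gene Itpr2 had a ratio of 1.28 and Itpr3 one of 1.35 (0.837 to 2.17), and the phospholipase gene Plcb3 had one of 0.685 and the arrestin gene Arrb2 one of 0.781. Plcb1, the main neuronal phospholipase C of the pathway, had a ratio of 1.01. Of 3 genes of the sodium leak channel through which substance P depolarises neurons, 0 passed the limit, with Nalcn at 1.12, Unc80 at 1.01 and Unc79 at 1.02.

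The kisspeptin and gonadotropin-releasing hormone genes bear on neurokinin B, which is made with kisspeptin and dynorphin in the arcuate nucleus. Of 7 such genes with enough UMIs, 1 was higher and 1 lower. Pdyn, the dynorphin gene, was higher at 28.3 CPM in the aged and 20.7 CPM in the young library (1.37, 1.26 to 1.48). Gnrh1, the gene of the releasing hormone, was lower at 2.09 CPM in the aged and 7.79 CPM in the young library (0.269, 0.213 to 0.336). It had a UMI in 85 of 4956 aged and 160 of 6400 young neurons. Kiss1 had 0 UMIs in neurons of both libraries, which allows a share of neurons with a UMI of up to 0.0605% in the aged library and 0.0469% in the young library. Nuclei with 10 or more Gnrh1 UMIs numbered 0 in the aged library and 3 in the young library, and those 3 held no Tacr1 or Tacr3 UMI. A lower Gnrh1 level and fewer such neurons caught in the aged library cannot be told apart, and the receptors of these neurons could not be described at this depth. The steroid receptor genes Esr1 and Pgr, at 0.989 and 0.997, did not pass the limit.

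The genes whose level across the 24 types was most like that of each tachykinin gene were named by the lower of the correlations in the 2 libraries, among 12375 genes, on the log2 scale of CPM plus 5. For Tac1 these were Wnt2 (r = 0.850 aged, 0.845 young), Gpr26 (0.904, 0.817), Mis18a (0.812, 0.815), Kcnh3 (0.798, 0.867) and Adra2c (0.805, 0.795). For Tac2, Mc4r, a melanocortin receptor gene, led with 0.710 in the aged library and 0.580 in the young library, before Scml4, Sema4a, Enkd1 and Colgalt1, of which none was below 0.543. For Tacr1, Abcb10 led with 0.755 in both libraries, before Fbxl7, Vezt, Vwc2l and Mturn, of which none was below 0.719. For Tacr3, Rsrp1 led with 0.735 in the aged library and 0.758 in the young library, before Csmd2os, Csmd2, Zfp536 and Acly, of which none was below 0.627. The types share 1 library's depth and free RNA, and of the 5 genes named per member, 2 for Tac1, 5 for Tac2, 3 for Tacr1 and 3 for Tacr3 were named again with a pseudocount of 1.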

How the data were processed

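Nuclear RNA of 2 libraries, each a pool of 5 male mice, was counted by the authors, who deposited unfiltered matrices of UMI counts per gene and barcode, which per the file headers came from Cell Ranger 4. The genome build and annotation of the counts, and the handling of introns, are named by no source used here. Barcodes with at least 500 genes and at most 5% mitochondrial UMIs were kept if they were called as nuclei (an upper-total limit, or a Monte Carlo test of 10000 draws against barcodes of 100 or fewer UMIs at an adjusted rate of 0.001) and were not Scrublet doublets (406 aged, 503 young). The aged matrix sums to 79107368 and the young matrix to 87520038 UMIs. Neurons were clustered with scanpy 1.11.5 and leidenalg 0.10.2 (2000 variable genes, none a tachykinin gene, 30 components, resolution 1). Levels are summed UMIs per 1e6 UMIs (CPM). Intervals, at 95%, came from scipy 1.17.1 (exact Poisson, conditional binomial, Clopper-Pearson), tested on simulated data. Sequences and positions came from GENCODE M21, read with Biopython 1.88. Named genes were the 4 members, the listed partner genes and the 5 genes most like each member. The members, the marker and partner lists and the sub-cluster names were chosen with earlier results of these data known. Other alternatives were other filters, groupings, scalings, thinning to 2000 UMIs, subtraction of free RNA, and removal of top nuclei or of the 3 types with most Tac1, which were added after seeing the data. Sub-clusters with under 20 nuclei in a library were not compared. Of the compared sub-clusters 1, and of the listed partner genes 1, are counted but not reported here.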

Additional observations from a re-analysis of the deposited data

How the results depend on the processing

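No paired analysis was possible because there is 1 library per age and the labels give no replicate numbers, so neither a block nor leaving out a library could be fitted. Over all neurons, the ratio of aged to young lay outside its own counting interval in these cases. Subtraction of free RNA taken from oligodendrocytes and microglia gave 1.49 for Tac1 and 1.44 for Tac2, and from microglia alone 1.53 and 1.43. Thinning every neuron to 2000 UMIs gave 1.34 for Tac1 and 1.13 for Tacr3. Weighting each sub-cluster alike in both libraries, by its mean share of neuronal UMIs, gave 1.36 for Tac1 and 1.24 for Tac2. Filters on barcodes, doublets kept, other totals and removal of top nuclei left all 4 ratios within their intervals.

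Under another grouping, each type was matched to the single group that held the largest number of its nuclei. Among the 51 ratios in sub-clusters, direction turned under other groupings in cases that include these. With tachykinin genes kept in the clustering, Tacr1 in the Drd2 type was 1.07, Tac2 in the Cyp19a1 type 0.934 and Tac1 in the Avp Oxt type 1.66. At resolution 2 these were 1.00, 0.754 and 1.33. At resolution 0.5, Tacr1 in the Lhx8 type was 1.28, Tac2 in the Cyp19a1 type 0.983 and Tac1 in the Avp Oxt type 1.70. The cause was not tested. The ratio stayed within its interval for 43 of 51 with those genes kept, 36 at resolution 2, 39 at resolution 0.5, 47 without the 3 nuclei with most UMIs, and 38 of 49 with free RNA subtracted. Depth limits Tacr3 most, with 5 sub-clusters above 50 UMIs.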

Other observations

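Other nuclei with tachykinin genes had partners of their own. Bnc2 Ebf1 nuclei with 3 or more Tac2 UMIs (15 aged, 16 young) were set against those with 0. Crh, the corticotropin-releasing hormone gene, was 83.8 CPM with Tac2 and 17.8 CPM without in the aged library, and 48.7 and 12.2 CPM in the young library. With Tac2 it had only 15 aged and 9 young UMIs, in 33.3% and 18.8% of nuclei, against 8.38% and 7.75% without. Ebf1, a leading gene of the type, was found in 73.3% of aged and 75.0% of young nuclei with Tac2. It was found in 19.4% and 21.5% of those without. Slc17a8, a vesicular glutamate transporter gene, had no UMI in the nuclei with Tac2, which allows a share of up to 20.0% of aged and 18.8% of young nuclei, and was found in 12.6% of aged and 11.3% of young nuclei without Tac2, so a difference was not detectable with this number of nuclei. In Gal preoptic Esr1-like nuclei with 3 or more Tac2 UMIs (63 aged, 75 young), Nts, the neurotensin gene, was 105 CPM, against 364 CPM in those with 0, in the aged library, and 218 against 587 CPM in the young library. The shares with an Nts UMI were closer, at 31.7% against 39.8% of aged and 41.3% against 45.6% of young nuclei. A finer group of this type led by Rai14 and Pde11a, of 11 aged and 13 young nuclei, had Tac2 at 636 CPM in the aged and 788 CPM in the young library. In Trh Sim1 nuclei with 3 or more Tac1 UMIs (61 aged, 65 young), Penk, the enkephalin gene, was 176 CPM, against 54.9 CPM in those with 0, in the aged library, and 70.9 against 37.8 CPM in the young library. Among Sst Npy nuclei, those with 3 or more Tac1 UMIs (41 aged, 47 young) had Gbx1 at 10.5 CPM, against 61.6 CPM in those with 0, in the aged library, and 4.12 against 79.2 CPM in the young library.

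Nuclei with 50 or more Avp UMIs numbered 14 in the aged library and 18 in the young library, and magnocellular and suprachiasmatic nuclei were not set apart among them. Tac1 had 4 UMIs in 3 of the aged nuclei and 18 UMIs in 9 of the young nuclei, Tacr3 had 5 UMIs in 1 aged nucleus and 1 UMI in 1 young nucleus, and Tacr1 had 0 in both libraries. All 5 aged Tacr3 UMIs of the Avp Oxt paraventricular-supraoptic-like type lay in 1 nucleus, and 16 of its 18 young UMIs in another. The other family genes were near 0 in neurons, with 16 aged and 27 young UMIs of Tac4, which encodes hemokinin, and 2 aged and 1 young UMIs of Tacr2, the receptor that prefers neurokinin A.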
